A study of Mus musculus with 18 samples.

Results

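The genes described are the Rab, Arf and Arl small GTPases of mouse haematopoietic stem cells (HSCs) and the Arfgap genes that act on Arf proteins. A gene was taken when its name in both deposited tables was Rab, Arl or Arf with a number, with or without a paralogue letter, or Arfgap with a number, and when its mean over the 6 deposited columns was at least 5 RPKM (reads per kilobase of gene and per 1000000 reads). Of 85 such names 57 reached that mean, among 8092 genes of 23038 that did. They comprise 6 Arf genes, 11 Arl genes, 3 Arfgap genes and 37 Rab genes. The names alone say nothing of methylation, and the minimum used the average of all columns.

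Small GTPases of the Rab and Arf families are switches on the cytosolic face of membranes. With GTP bound they sit on a membrane and recruit coats, tethers and motors, and with GDP bound they return to the cytosol. Exchange factors load GTP and GTPase-activating proteins (GAPs) trigger its hydrolysis. Each member works on a few compartments, so that the set of Rabs and Arfs marks out the secretory, endocytic, lysosomal and granule routes of a cell. In blood cells they also carry receptors back to the surface and release granules.

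The mutant cells were HSCs of Mx1-cre; Mettl3fl/fl mice, called Mettl3-deficient, and the control cells were wild-type HSCs, all on C57BL/6. Per the labels, both genotypes received 10 µg pIpC, a double-stranded RNA mimic that induces interferon, in 5 injections, and adult hindlimb marrow was taken 10 days after the last. Mx1-cre is driven by interferon in many cell types, so Mettl3 was not deleted in HSCs alone. Cells were sorted as Lineage- Sca1+ cKit+ CD150+ CD48-, 3000 per sample. Polyadenylated RNA was split with an antibody against N6-methyladenosine (m6A), the base that Mettl3 writes into mRNA, into an m6A-tagged fraction and an unbound fraction made of all washes, and an input fraction was kept. The 6 groups (Mettl3-deficient m6A-tagged, unbound and input, then wild-type m6A-tagged, unbound and input) had 3 libraries each, 18 in all.

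The authors deposited 1 column per group, the mean RPKM of its 3 libraries, so no spread between replicates can be given, no p-value was computed, and each difference below is a difference between 2 pooled columns. The depths recovered from the values were 25.9 to 33.6 M reads (M, 1000000) per library in Mettl3-deficient m6A-tagged, 12.2 to 27.3 in Mettl3-deficient unbound and 9.42 to 30.1 in Mettl3-deficient input RNA. They were 30.3 to 35.0 M in wild-type m6A-tagged, 24.3 to 27.4 in wild-type unbound and 28.3 to 37.2 in wild-type input RNA. Mettl3 stood at 19.6 RPKM in Mettl3-deficient and 36.4 RPKM in wild-type input, which checks the labels in part. Exons outside the deleted stretch would still count, but where the remaining reads come from was not tested. Of the HSC markers Kit, Ly6a, Slamf1, Procr, Mecom, Hlf, Fgd5, Hoxb5 and Meis1, all were at 3.98 RPKM or more in both inputs. The granulocyte genes Mpo and Elane were at 62.1 and 36.8 RPKM in Mettl3-deficient input, against 653 and 592.5 RPKM in wild-type input, and the megakaryocyte gene Pf4 was at 79.9 against 428 RPKM. The T cell marker Cd3e was listed at 0.0429 RPKM or less in every column. In bulk RNA fewer cells of a type and less RNA per cell cannot be told apart.

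How much a single library can carry was visible in 5 Rab genes far below the minimum, whose reads per library could be recovered. Recovery needed at least 2 of the 6 columns without a read, which favours genes with reads in few libraries. Of the 14 values with any reads in these 5 genes, 11 came from 1 library alone. This share does not extend to genes with more reads. Rab30 had 111 reads in 1 wild-type m6A-tagged library and 0 in the other 2 libraries. Rab39 had 48 reads in 1 Mettl3-deficient m6A-tagged library and 0 in the other 2. Rab15, a neuronal endosome Rab, had 216, 16 and 0 reads in m6A-tagged libraries of Mettl3-deficient cells, against 0, 133 and 84 reads in the wild-type unbound libraries. None of the 57 genes compared could be resolved in this way, so their part in the differences below was not tested.

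HSCs expressed a broad set of these switches. In input RNA the median of the 57 genes was 24.6 RPKM in Mettl3-deficient HSCs and 31.1 RPKM in wild-type HSCs, against 23.1 and 25.4 RPKM over all 8092 genes. The highest in wild-type input were Arf5 at 201 RPKM, Arf1 at 156, Rab38 at 154, Arf4 at 152 and Rab11a at 139 RPKM. Arf1 recruits the COPI coat at the Golgi, Arf4 and Arf5 act between endoplasmic reticulum (ER) and Golgi, Rab11a marks recycling endosomes, and Rab38 serves lysosome-related organelles such as melanosomes and platelet dense granules. In Mettl3-deficient input the same 5 genes stood at 115, 209, 303, 153 and 132 RPKM. The lowest in wild-type input were Arl5c at 4.25, Rab34 at 6.52, Arl4a at 7.36, Arl11 at 8.17 and Arl16 at 8.32 RPKM. Just inside the minimum, with means of 5.54, 6.00 and 6.31 RPKM, were Arl11, Arl5c and Rab8b. Just outside it were Rab40b, Rab44 and Arl5b, with means of 4.92, 4.56 and 4.23 RPKM.

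**Figure D1:**
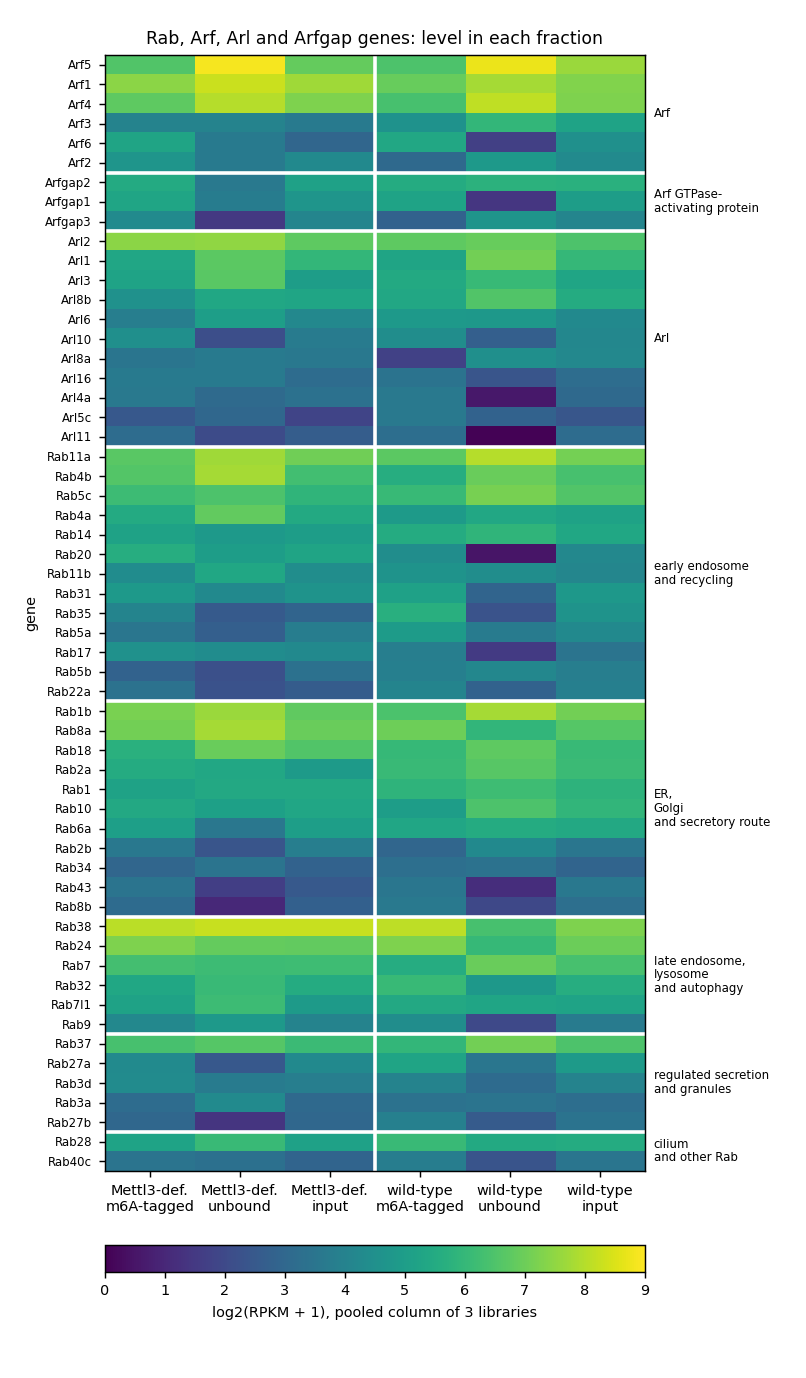
Level of each of the 57 genes (rows, grouped by role and ordered by mean within a role) in the 6 pooled columns, the 3 Mettl3-deficient fractions on the left and the 3 wild-type fractions on the right, as log2(RPKM + 1). The unbound columns hold both the brightest cells (Arf5 at 475 RPKM in Mettl3-deficient HSCs and 429 RPKM in wild-type HSCs) and the darkest (Arl11 at 0.0343 RPKM in wild-type cells, near values listed for genes without reads).

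Paralogues that share a compartment differed in level. Of the Rab5 trio of early endosomes, Rab5c stood at 58.3 RPKM in Mettl3-deficient and 92.4 RPKM in wild-type input, Rab5a at 13.1 and 18.2 RPKM and Rab5b at 9.22 and 13.3 RPKM. Of the exocytic pair, Rab8a was at 121 and 96.9 RPKM, and Rab8b at 5.71 and 8.77 RPKM. Rab1b, which acts in ER to Golgi transport with Rab1 (Rab1a in RefSeq), was at 111 and 134 RPKM against 42.1 and 55.0 RPKM for Rab1. Of the recycling Rabs, Rab11a was at 132 and 139 RPKM and Rab11b at 20.4 and 16.6 RPKM. The order of the members was the same in both genotypes within each of these sets. Of the granule Rabs, Rab37 was at 69.5 and 88.8 RPKM, Rab27a, which docks secretory granules, at 18.1 and 28.7 RPKM, and Rab27b at 6.95 and 9.86 RPKM.

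Which of these transcripts carry m6A was asked by setting the m6A-tagged column against input. Ratios are log2((RPKM + 1)/(RPKM + 1)), a scale that understates the change of low genes, and genes at least 2-fold apart on it were counted. In Mettl3-deficient cells 2 of the 57 genes were 2-fold higher in m6A-tagged RNA, Arf6 and Rab35, and 0 were 2-fold lower. Over all 8092 genes 1.94% were higher and 1.29% lower, 3.23% in either direction. In wild-type cells 2 were 2-fold higher, Arl5c and Rab35, and 4 were lower, Arl8a, Arfgap3, Arf2 and Arf5, against 4.44% and 5.07% of all genes, or 9.5% in either direction. These shares are near the background in both genotypes. The median over the 57 genes was 0.19 in Mettl3-deficient HSCs and 0.17 in wild-type HSCs, against 0.13 and 0.09 over all genes.

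Arf6, the plasma membrane Arf that controls endosomal recycling and cortical actin (chromosome 12, 69372150 to 69375980 in GRCm38, the build called mm10), had the highest ratio in Mettl3-deficient cells. It stood at 36.9 RPKM in m6A-tagged, 11.6 RPKM in unbound and 6.90 RPKM in input RNA of Mettl3-deficient cells, and at 40.9, 2.30 and 22.0 RPKM in the same fractions of wild-type cells. The m6A-tagged columns were alike and the inputs were not. On the log2 scale m6A-tagged over input was 2.26 in Mettl3-deficient HSCs and 0.86 in wild-type HSCs.

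Rab35, which drives fast recycling from endosomes to the plasma membrane (chromosome 5, 115631904 to 115647158), was the 1 gene past 2-fold in both genotypes. Its Mettl3-deficient m6A-tagged, unbound and input values were 15.6, 4.78 and 6.38 RPKM, against 50.0, 3.97 and 23.8 RPKM in wild-type cells. The m6A-tagged column was the highest of the 3 in both, at a log2 ratio to input of 1.17 in Mettl3-deficient HSCs and 1.04 in wild-type HSCs. With 5 RPKM added in place of 1 RPKM the ratios were 0.86 and 0.94, under 2-fold in both.

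Among the genes low in wild-type m6A-tagged RNA, Arl8a, 1 of a pair of Arl proteins that couple lysosomes to kinesin, stood lowest. It was at 10.2, 12.1 and 11.3 RPKM in m6A-tagged, unbound and input RNA of Mettl3-deficient cells and at 2.35, 21.5 and 17.4 RPKM in those of wild-type cells, so that its wild-type m6A-tagged value was the lowest of the 6. Its paralogue Arl8b had 22.4, 39.9 and 38.3 RPKM against 41.4, 92.3 and 45.7 RPKM. The ratio to input was -0.13 in Mettl3-deficient HSCs and -2.46 in wild-type HSCs for Arl8a, and -0.75 and -0.14 for Arl8b. The paralogues thus stood in opposite order in the 2 genotypes.

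Arf2 and Arfgap3, like Arl8a, had a lower m6A-tagged value in wild-type than in Mettl3-deficient cells. Arf2, a class I Arf of the Golgi, was at 25.0 RPKM in m6A-tagged and 18.1 RPKM in input RNA of Mettl3-deficient cells, against 7.45 and 18.8 RPKM in wild-type cells. Arfgap3, which stimulates GTP hydrolysis on Arf1 at the Golgi, was at 18.8 and 16.1 RPKM, against 6.10 and 16.3 RPKM. In both, the inputs of the genotypes were nearly equal and the m6A-tagged columns were apart. Arf5 was at 92.5 RPKM in m6A-tagged and 115 RPKM in input RNA of Mettl3-deficient cells and at 88.6 and 201 RPKM in those of wild-type cells, where the inputs differed instead. The lowest ratios in Mettl3-deficient cells were -0.86 for Rab18, -0.75 for Arl8b, -0.66 for Arl1, -0.52 for Rab5b and -0.51 for Arf4. In wild-type cells Rab10, which acts in exocytosis, had -0.90. The other high ratios were 0.93 for Rab43, 0.75 for Rab22a and 0.75 for Arl10 in Mettl3-deficient cells, and 0.81 for Rab38 and 0.68 for Rab9 in wild-type cells.

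**Figure D2:**
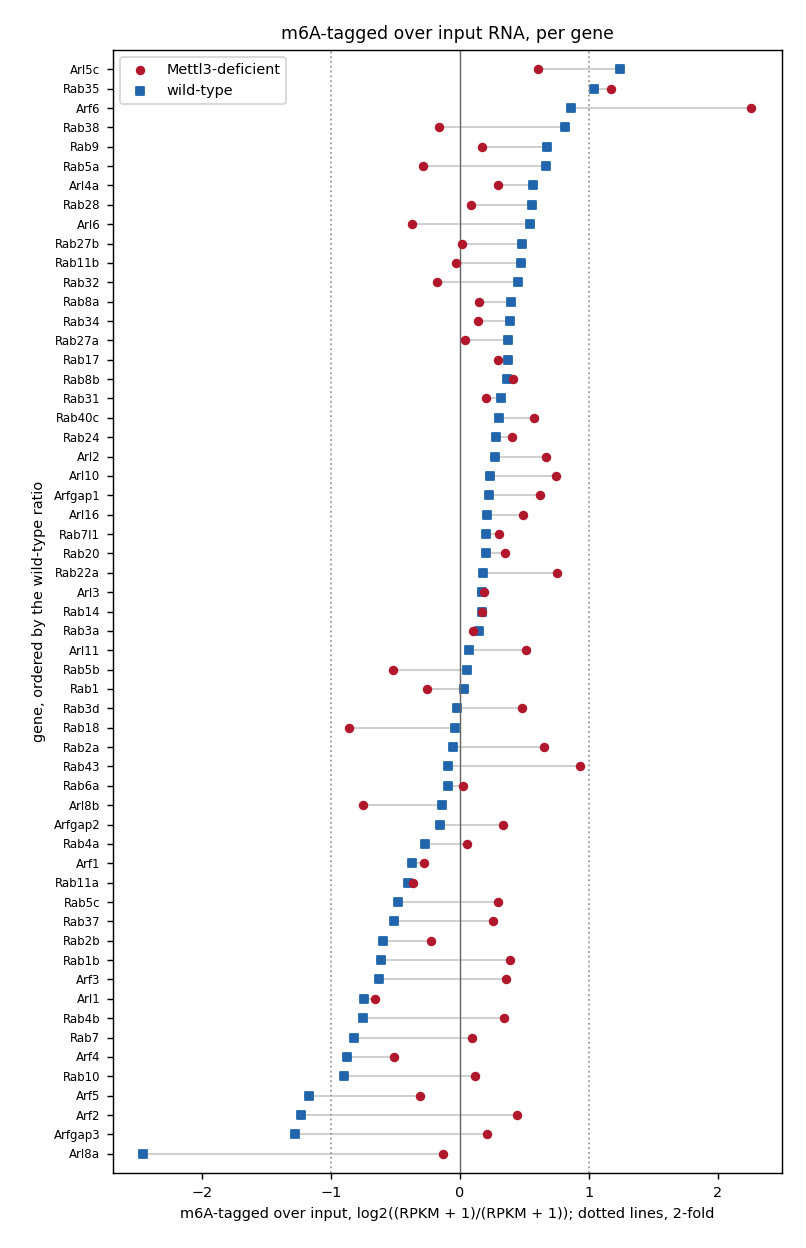
Log2 ratio of m6A-tagged over input RPKM for the 57 genes (rows, ordered by the wild-type ratio), with Mettl3-deficient cells as red circles and wild-type cells as blue squares, each from 2 pooled columns. Most points lie between the dotted 2-fold lines; Arf6 at 2.26 in Mettl3-deficient and Arl8a at -2.46 in wild-type cells stand out.

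Whether the ratio depended on genotype was read from the difference of the log2 ratios, Mettl3-deficient minus wild-type. It was at least 2-fold higher in Mettl3-deficient cells for 8 genes, Arl8a (2.33), Arf2 (1.68), Arfgap3 (1.50), Arf6 (1.40), Rab4b (1.09), Rab10 (1.02), Rab43 (1.02) and Rab1b (1.00), where 7.41% of all genes were. It was lower for 0 of 57, where 3.84% of all genes were. The lowest were Rab38 (-0.98), Rab5a (-0.95), Arl6 (-0.92), which recruits the BBSome to cilia, Rab18 (-0.82) and Arl5c (-0.64). The median over the 57 genes was 0.12, against 0.02 over all genes. The split of 8 higher and 0 lower was 5 and 1 under median-ratio scaling of the columns and 5 and 3 under upper-quartile scaling. The 8 genes did not all share a pattern across the m6A-tagged and input columns. The m6A-tagged ones differed more between genotypes for Arl8a, Arf2, Arfgap3, Rab4b and Rab1b, and the inputs for Arf6, Rab43 and Rab10.

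The unbound fraction stood apart in most genes of the tables, these included. It was the column farthest from the mean of the other 2 for 35 of 57 genes in Mettl3-deficient and 39 of 57 in wild-type cells, against 73.8% and 65% of all genes. In Mettl3-deficient cells 7 genes were 2-fold higher in unbound than in input RNA and 10 were lower, where 15.4% and 34.9% of all genes were, 50.4% in either direction. In wild-type cells 2 were higher and 15 lower, where 3.98% and 31.3% of all genes were, 35.3% in either direction. The median was 0.10 in Mettl3-deficient HSCs and 0.22 in wild-type HSCs, against -0.36 and -0.26 over all genes. Under median-ratio scaling the Mettl3-deficient split was 14 higher and 8 lower, and the wild-type split 4 and 14. Upper-quartile scaling turned the Mettl3-deficient median to -0.02. Set against all genes the median lay higher by 0.46 in Mettl3-deficient and by 0.48 in wild-type cells at the 5 RPKM minimum. At a minimum of 50 RPKM it lay higher by 0.17 and 0.15, and with no minimum the differences were 3.45e-05 and -0.05. With no minimum the background is all 23038 genes, of which 6986 had no read in any library. Its median was 0.000749 in Mettl3-deficient HSCs and 0.00295 in wild-type HSCs. Genes without reads lie near 0 on this scale, so that setting cannot show how the family stands against expressed genes. The ratio also went with level. For means of 5 to 20, 20 to 60 and above 60 RPKM the wild-type medians were -0.89, 0.21 and 0.59. Over all genes of these classes they were -0.90, -0.18 and 0.48. In Mettl3-deficient HSCs they were -0.36, 0.355 and 0.68, against -0.995, -0.26 and 0.585. The part of level in the difference was not tested.

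Arf5 (chromosome 6, 28423604 to 28426602) was the Golgi Arf most concentrated in unbound RNA. It was at 475 RPKM in unbound and 115 RPKM in input RNA of Mettl3-deficient cells, and at 429 and 201 RPKM in those of wild-type cells. The unbound column was the highest of the 3 in both genotypes, and the log2 ratio to input was 2.03 and 1.09. Arl1, which tethers golgins to the trans-Golgi, was the other gene past 2-fold in wild-type cells, at 106 and 61.7 RPKM in Mettl3-deficient (0.77) and 135 and 62.5 RPKM in wild-type cells (1.10). In Mettl3-deficient cells Arl3 (1.68), which releases lipidated cargo in cilia, the recycling Rabs Rab4b (1.50) and Rab4a (1.38), Rab7l1 (1.29, Rab29 in RefSeq), Rab3a (1.23) and Arl5c (1.14) were also past 2-fold.

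At the other end, wild-type unbound RNA held little of several low and middling genes. Rab20, a Rab of endosomes and phagosomes, stood at 0.418 RPKM in wild-type unbound RNA against 17.4 RPKM in wild-type input, and Arfgap1 at 1.71 against 31.1 RPKM. Arl11 stood at 0.0343 against 8.17 RPKM, Arl4a, a plasma membrane Arl, at 0.493 against 7.36 RPKM, and Arf6 at 2.30 against 22.0 RPKM. These are log2 ratios of -3.69, -3.56, -3.15, -2.49 and -2.80, and the size of each depends on the added RPKM. The Arl11 value is near the floor, because Arl14, without a read in these libraries, was listed at 0.0320 RPKM in wild-type unbound RNA. In Mettl3-deficient cells the lowest ratios were those of other genes, Arfgap3 (-2.59), Rab27a (-1.77), Rab8b (-1.71), Rab27b (-1.61) and Arl10 (-1.56). Of the 10 genes 2-fold lower in Mettl3-deficient and the 15 in wild-type cells, 3 were shared, which is 30% of the first and 20% of the second set. Over all genes 56.5% and 63% of the sets were shared.

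**Figure D3:**
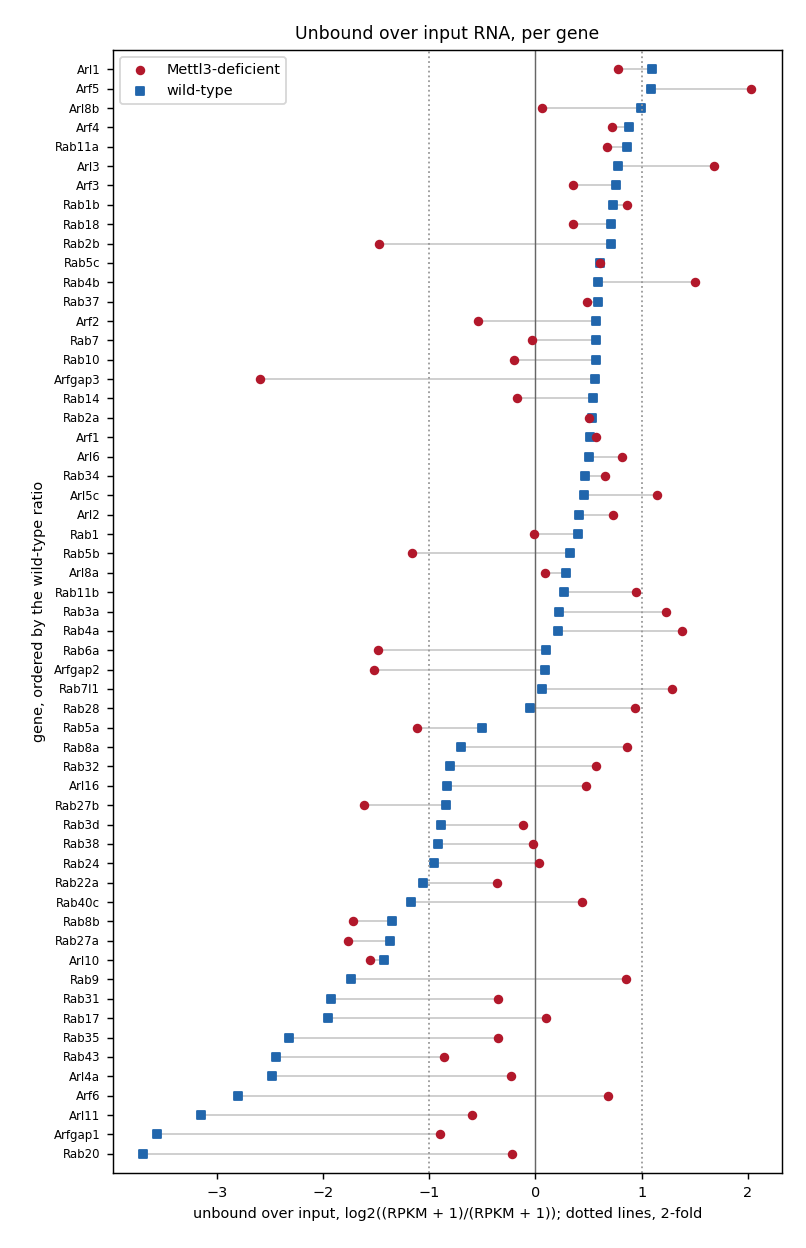
Log2 ratio of unbound over input RPKM for the 57 genes (rows, ordered by the wild-type ratio), Mettl3-deficient cells as red circles and wild-type cells as blue squares. Wild-type values reach -3.69 (Rab20), where the Mettl3-deficient value is -0.22, and the highest value is 2.03 (Arf5, Mettl3-deficient).

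The m6A-tagged fraction was also set against unbound RNA. In Mettl3-deficient cells 14 genes were 2-fold higher and 10 lower in m6A-tagged RNA, where 39.6% and 13.9% of all genes were, 53.5% in either direction. In wild-type cells 22 were higher and 16 lower, where 36.9% and 16.4% were, 53.3% in either direction. Under median-ratio scaling the Mettl3-deficient split was 11 and 18. The median was 0.01 in Mettl3-deficient HSCs and -0.07 in wild-type HSCs, against 0.57 and 0.36 over all genes, and under median-ratio scaling it was -0.33 and -0.25. Set against all genes it lay lower by 0.56 in Mettl3-deficient and by 0.43 in wild-type cells at the 5 RPKM minimum. With no minimum it lay higher, by 0.15 and 0.21, over 85 genes. Both comparisons share the m6A-tagged and unbound columns with those above.

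The ratio went with level, in these genes as in all genes. For the 23 genes with a mean of 5 to 20 RPKM the median of m6A-tagged over unbound was 0.83 in Mettl3-deficient HSCs and 1.23 in wild-type HSCs, for the 19 genes of 20 to 60 RPKM it was 0.005 and -0.19, and for the 15 genes above 60 RPKM it was -0.71 and -1.10. Over all genes of the same 3 classes it was 1.20, 0.46 and -0.48 in Mettl3-deficient and 1.13, 0.27 and -0.61 in wild-type cells. Level and ratio share the same columns, and this is a description. Genomic span, which was available for all 57, had a Spearman correlation with the ratio of 0.13 in Mettl3-deficient HSCs and -0.06 in wild-type HSCs across the 57 genes, against 0.43 and 0.12 across 8084 genes, which are not independent replicates.

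By role, the Arf genes had the lowest median in wild-type cells, -0.42 in Mettl3-deficient HSCs and -1.57 in wild-type HSCs over 6 genes. Arf5 was at -2.35 and -2.26, Arf4 at -1.23 and -1.76, Arf1 at -0.85 and -0.88, Arf2 at 0.99 and -1.80, and Arf3 at 0.00 and -1.38. Arf6 was the exception, at 1.58 in Mettl3-deficient HSCs and 3.67 in wild-type HSCs. The plasma membrane Arf thus stood above 2-fold in both genotypes and every Golgi Arf below 0 in wild-type cells. The 6 late endosome, lysosome and autophagy Rabs had medians of -0.41 in Mettl3-deficient HSCs and 1.25 in wild-type HSCs, with Rab9, which acts in transport from late endosomes to the Golgi, at -0.68 and 2.42, Rab38 at -0.15 and 1.73 and Rab32 at -0.75 and 1.26. Rab7, the general late endosome Rab, had the opposite order, at 0.13 and -1.39.

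The 3 Arfgap genes, whose proteins act together on Arf1, differed widely. Arfgap3 was at 2.81 in Mettl3-deficient HSCs and -1.84 in wild-type HSCs, Arfgap1 at 1.52 and 3.79, and Arfgap2 at 1.86 and -0.24. In unbound RNA Arfgap3 stood at 1.83 RPKM in Mettl3-deficient HSCs and 24.5 RPKM in wild-type HSCs, Arfgap1 at 12.7 and 1.71 RPKM, and Arfgap2 at 11.4 and 54.4 RPKM. Arfgap3 and Arfgap2 were thus lower and Arfgap1 higher in Mettl3-deficient unbound RNA, while their inputs differed by at most -0.55 on the log2 scale. Of the 13 early endosome and recycling Rabs 2 were past 2-fold on the m6A-tagged side in Mettl3-deficient cells and 6 in wild-type cells. On the unbound side 3 and 3 were. Of all genes 39.6% and 36.9% were past 2-fold on the m6A-tagged side and 13.9% and 16.4% on the unbound side. Of the 5 granule Rabs, Rab27a (1.81 and 1.75) and Rab27b (1.63 and 1.33) were 2-fold higher in both genotypes. The others were Rab3d at 0.60 and 0.87, Rab37 at -0.23 and -1.10 and Rab3a at -1.13 and -0.07. Also 2-fold higher in both were Rab8b (2.12 and 1.72), Arl10 (2.31 and 1.66) and Rab43 (1.79 and 2.36). So were Rab35 (1.52 and 3.36), Arl11 (1.11 and 3.22) and Rab22a (1.11 and 1.23). Arl11, Rab8b and Rab43 had means of 5.54, 6.31 and 6.66 RPKM. Their input and unbound columns alone would not have reached the minimum, so high m6A-tagged values helped to select them.

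**Figure D4:**
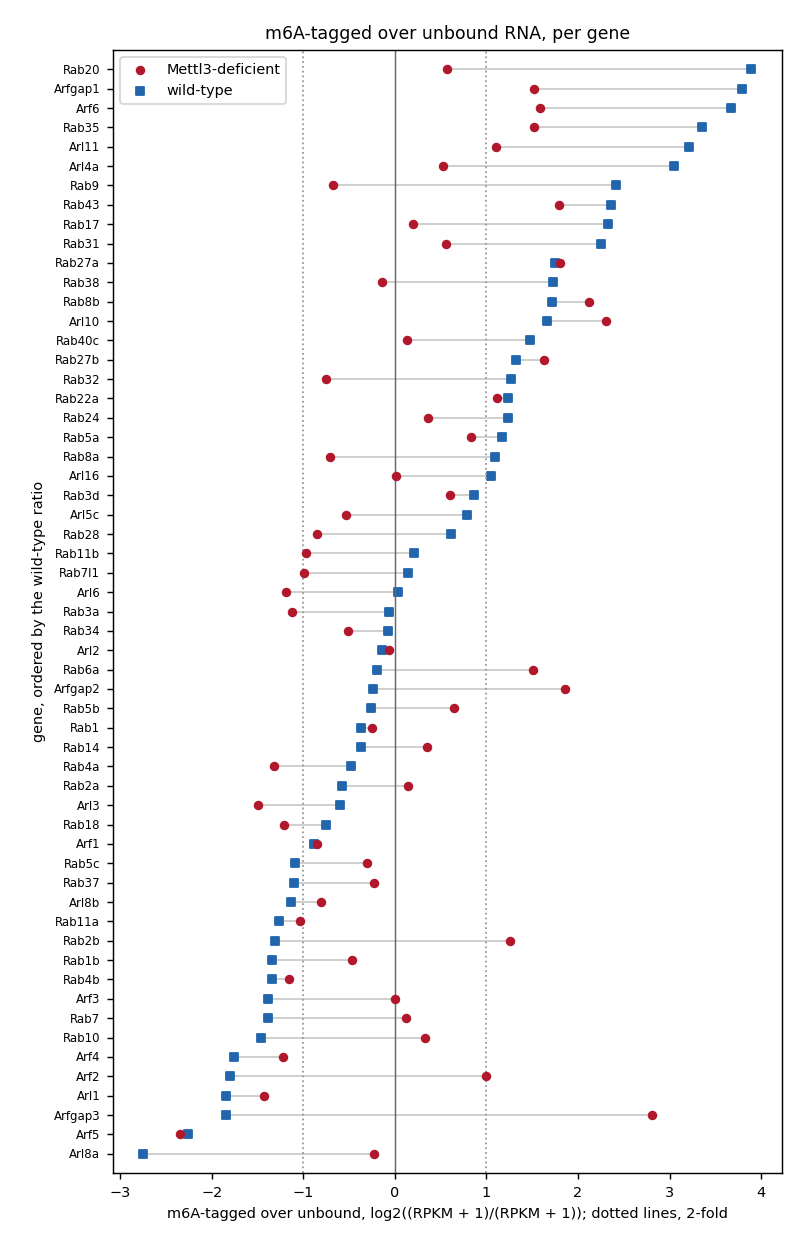
Log2 ratio of m6A-tagged over unbound RPKM for the 57 genes (rows, ordered by the wild-type ratio), Mettl3-deficient cells as red circles and wild-type cells as blue squares. Of the 57 genes 10 lie right of the upper 2-fold line in both genotypes and 5 left of the lower one in both, where 1909 and 602 of all 8092 genes do; Arfgap3 (2.81 and -1.84) and Rab9 (-0.68 and 2.42) have the genotypes far apart.

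The genotype difference of this ratio was at least 2-fold higher in Mettl3-deficient cells for 9 genes and lower for 20, where 23.2% and 23.1% of all genes were, 46.4% in either direction. The highest were Arfgap3 (4.65), Arf2 (2.80), Rab2b (2.56), Arl8a (2.52) and Arfgap2 (2.10). The lowest were Rab20 (-3.32), Rab9 (-3.10), Arl4a (-2.53), Arfgap1 (-2.27) and Rab17 (-2.13). The median over the 57 genes was -0.12, against -0.03 over all genes. Between genotypes 28 of 57 genes were 2-fold apart in unbound, 8 in m6A-tagged and 7 in input RNA, where 42.7%, 15.4% and 10.7% of all genes were. For Arl8a and Arf2 the m6A-tagged columns lay farther apart than the unbound ones, at 1.75 and 1.62 against -0.78 and -1.17.

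In unbound RNA Rab20 stood at 31.6 RPKM in Mettl3-deficient and 0.418 RPKM in wild-type cells, which is 23.0-fold with 1 RPKM added to each value. Rab9 was at 28.4 against 2.98 RPKM, Rab17, a Rab of epithelial recycling, at 19.6 against 1.86 RPKM, Arl4a at 7.62 against 0.493 RPKM and Arfgap1 at 12.7 against 1.71 RPKM. In all, 14 genes were 2-fold higher and 14 lower, where 18.9% and 23.8% of all genes were. On the lower side, the log2 ratio was -3.17 for Arfgap3, -2.16 for Arfgap2, -1.97 for Rab5b, -1.96 for Rab6a, which runs Golgi to ER retrograde transport, and -1.94 for Arf3. Under median-ratio scaling 19 were higher and 9 lower.

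The m6A-tagged columns of the genotypes were closer. Arl8a (1.75), Arf2 (1.62), Arfgap3 (1.48) and Rab20 (1.20) were 2-fold higher in Mettl3-deficient cells and Rab35 (-1.62), Rab5a (-1.39), Arl5c (-1.17) and Rab5b (-1.05) lower, where 5.97% and 9.39% of all genes were. Rab4b (1.00) and Arl6 (-0.99) stood next. For Rab20 the input and unbound columns were also higher in Mettl3-deficient cells, and for Rab35 the input was also lower.

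How the level of these genes differed without Mettl3 was asked of the input columns. In Mettl3-deficient input 1 of 57 genes was 2-fold higher and 6 were lower, where 2.27% and 8.42% of all genes were. The median was -0.27, against -0.08 over all genes, and 44 of 57 genes lay below 0, where 4605 of all 8092 genes did. Under median-ratio and upper-quartile scaling the median was -0.18 and -0.20, and in both 2 genes were higher. Granulocyte and megakaryocyte genes also differed between these columns, with Mpo at 62.1 RPKM in Mettl3-deficient and 653 RPKM in wild-type input. Of 11 markers of other cells at 5 RPKM or more, 8 were 2-fold lower and 1 higher in Mettl3-deficient input, and their part in the result was not tested.

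The 6 genes lower in Mettl3-deficient input were 2 of 6 Arf genes, 2 of 13 early endosome and recycling Rabs and 2 of 11 ER, Golgi and secretory Rabs. Rab35 was at 6.38 RPKM in Mettl3-deficient and 23.8 RPKM in wild-type input, a log2 ratio of -1.75. Arf6 was at 6.90 and 22.0 RPKM (-1.54). The Golgi and recycling Arf3 (chromosome 15, 98737624 to 98763118) was at 11.8 and 36.2 RPKM (-1.54), and was lower in the Mettl3-deficient unbound column as well. Rab22a, of early endosomes, was at 5.20 and 13.7 RPKM (-1.25), Rab2a, of ER to Golgi transport, at 28.9 and 69.8 RPKM (-1.24), and Rab43, of the Golgi, at 4.73 and 11.3 RPKM (-1.10, and -0.74 with 5 RPKM added). The paralogue Rab2b stood at 13.3 and 10.7 RPKM (0.28), on the other side of 0.

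Rab20 (chromosome 8, 11453390 to 11478640) was the 1 gene 2-fold higher, at 37.1 RPKM in Mettl3-deficient and 17.4 RPKM in wild-type input (1.05), and was higher in all 3 Mettl3-deficient fractions. With 5 RPKM added its log2 ratio was 0.91, under 2-fold. Its annotation overlaps E230013L22Rik, and 26 of the 57 genes overlap another annotated gene, whose reads cannot be told apart because strand use in the counting is not stated. Rab38 (chromosome 7, 88430273 to 88491572) stood next, at 303 and 154 RPKM (0.97), and passed 2-fold under both scalings. Its m6A-tagged columns were nearly equal, at 270 and 272 RPKM. Rab17 (0.80), Rab18 (0.51) and Arf1 (0.42) followed. Rab32, which shares the lysosome-related organelles with Rab38, was at 45.5 and 47.7 RPKM (-0.07).

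**Figure D5:**
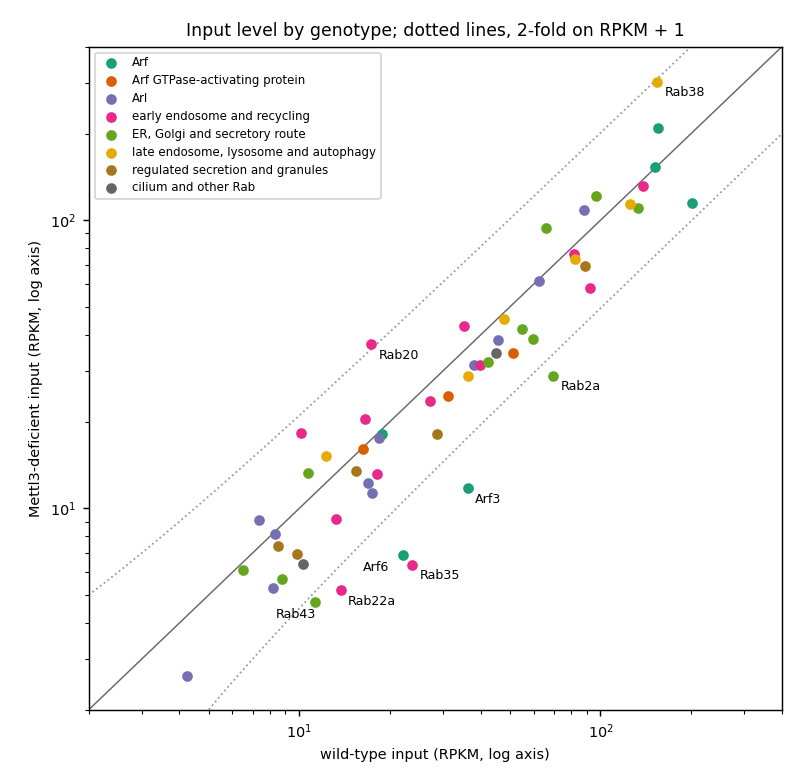
Input RPKM of the 57 genes in Mettl3-deficient (vertical, log axis) against wild-type cells (horizontal, log axis), coloured by role, each point from 2 pooled columns; the solid line is equality. Rab20 lies past the upper dotted 2-fold line, Rab35, Arf6, Arf3, Rab22a, Rab2a and Rab43 below the lower one, and Rab38, at 303 and 154 RPKM, just under the upper one.

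Promoters are shown for the genes 2-fold apart between the inputs, because the input column holds the level that a promoter sets in part, and for those whose RefSeq window ends at the outermost start of the gene (GRCm38.p6, 250 bases before the start, on the gene's strand, 5′ to 3′). Rab43, lower in Mettl3-deficient input, is read from the minus strand of chr6:87812165-87812414, and Rab20, higher there, from the minus strand of chr8:11478641-11478890. Capitals mark GGGCGG (GC box) and CACGTG (the E-box found in lysosomal gene promoters), searched on both strands.
Rab43: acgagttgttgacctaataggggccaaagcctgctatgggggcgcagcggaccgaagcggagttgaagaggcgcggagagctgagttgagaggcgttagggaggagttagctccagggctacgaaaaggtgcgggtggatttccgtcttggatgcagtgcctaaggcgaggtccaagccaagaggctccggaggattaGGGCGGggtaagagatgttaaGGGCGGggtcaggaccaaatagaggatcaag
Rab20: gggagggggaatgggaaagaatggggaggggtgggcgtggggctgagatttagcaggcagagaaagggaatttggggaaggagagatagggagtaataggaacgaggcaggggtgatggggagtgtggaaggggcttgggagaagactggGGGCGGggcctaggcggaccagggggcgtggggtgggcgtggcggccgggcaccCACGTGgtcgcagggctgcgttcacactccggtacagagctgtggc
Rab43 held 2 GC boxes and 0 E-boxes of this kind, and Rab20 held 1 of each. Of the 48 of 57 genes matched in the RefSeq table, 72.9% held GGGCGG and 10.4% CACGTG in these 250 bases, against 59.6% and 8.81% of 6572 genes of at least 5 RPKM. The median share of G and C in the windows was 63% in the 48 genes and 59.6% in the 6572, and the sets were not matched for it. Other strings searched were CCAAT (50% against 37.3%), CCGGAAG (10.4% against 16.6%), TATAAA (2.08% against 6.13%) and TGACGTCA (2.08% against 2.66%). The E-box was in Arf5, Rab20, Arl2, Arl3 and Rab5a. The interferon-stimulated response element was in 1 of the 48, Arl16, and in 2.86% of all. A match is a description of these letters and no evidence of binding.

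The proteins that load, unload and read these switches are described by lists of pathway genes, with members of at least 5 RPKM counted. In m6A-tagged over input RNA, 0 of 30 Rab exchange factors were past 2-fold in either direction in either genotype. Their medians were 0.33 in Mettl3-deficient HSCs and 0.25 in wild-type HSCs. Over all genes the share past 2-fold was only 3.23% for the Mettl3-deficient ratio and 9.5% for the wild-type ratio, and the lists are small. Of 23 Rab effectors, Micall2 (1.54), an actin-linked effector, was higher in Mettl3-deficient cells, and in wild-type cells Rilpl1 (1.43) was higher and Optn (-3.38), the autophagy receptor that binds Rab8, was lower. Of 5 Rab escort and prenylation genes, the GDP dissociation inhibitor Gdi2 (-0.54 and -1.08) and the prenyltransferase subunit Rabggtb (-0.17 and -1.27) were 2-fold lower in wild-type cells. Of 27 Arf effectors and coat genes, 0 passed in Mettl3-deficient cells, and Pld2 (-1.73) and Copg2 (-1.10) were lower in wild-type cells. Of 22 Rab GAPs, only Tbc1d7 (-1.135) passed, lower in wild-type cells. Of 11 Arf GAPs outside the naming rule, only Git1 (1.20) passed, higher in Mettl3-deficient cells. Of 7 Arf exchange factors 0 passed in either genotype.

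In m6A-tagged over unbound RNA the medians of the lists differed, but the lists were not matched for level, with which this ratio went. Over all genes of 5 to 20 RPKM the median was 1.20 in Mettl3-deficient HSCs and 1.13 in wild-type HSCs. Above 60 RPKM it was -0.48 and -0.61. Whether a list differs from other genes of like level was not tested. The median was 1.64 in Mettl3-deficient HSCs and 1.37 in wild-type HSCs for the 30 Rab exchange factors, 1.34 and 1.18 for 22 Rab GAPs, 1.71 and 0.85 for 23 Rab effectors and 2.19 and 0.86 for 7 Arf exchange factors, against 0.01 and -0.07 for the 57 GTPase and Arfgap genes and 0.57 and 0.36 for all genes. It was 1.32 and 0.03 for 11 Arf GAPs outside the naming rule, 1.25 and -0.27 for 27 Arf effectors and coat genes, 0.52 and -1.16 for 5 Rab escort and prenylation genes, and -0.76 and -0.11 for 7 trafficking GTPases with other names. Rin3, a Rab5 exchange factor, was at 3.78 and Rabif at 3.65 in wild-type cells, and Gapvd1 was at 2.88 and Dennd4b at 2.65 in Mettl3-deficient cells. The Arf exchange factors Psd4 (2.76 and 3.89) and Cyth4 (2.76 and 3.45) were high in both. The small subunits Trappc4 (-1.76 and -1.37) and Ap1s1 (-1.66 and -2.05) were low in both, and both stood at 47.99 RPKM or more in every column. Of the related GTPases, 13 Ras family genes had medians of 0.31 and 0.10.

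Between the inputs, 5 of 30 Rab exchange factors and 3 of 23 Rab effectors were 2-fold lower in Mettl3-deficient cells. Of all genes 8.42% were lower and 2.27% higher, and the lists are small. The genes named next are from these 2 lists. Lower were Ccz1 (-1.29), which with Mon1 activates Rab7, Sbf1 (-1.25), Dennd1a (-1.21), which activates Rab35, the Golgi tether Uso1 (-2.12) and Micall2 (-1.91). Rabep2 (1.05), an effector of Rab5 and Rab4, was the 1 effector 2-fold higher. Of 11 Arf GAPs outside the naming rule, Adap1 (-2.16), Smap2 (-1.50) and Agfg1 (-1.45) were lower, and of 13 Ras family genes 3 were lower. The Arf exchange factors showed 0 of 7 past 2-fold in either direction, where 10.7% of all genes were.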

How the data were processed

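Input, unbound and m6A-tagged RNA of sorted HSCs was amplified and tagmented by the Smart-seq2 method and read as 150-base pairs, per the labels' protocols. The authors deposited RPKM values in 2 tables, 1 per genotype, with 1 column per fraction. The values themselves show that each column is the mean over 3 libraries of reads plus 1, scaled by depth and gene length, and 6986 genes without reads in any library gave whole lengths. The build was mm10 per the submitters' processing notes, which also name edgeR and Picard without a role; the aligner, the counting tool and strand use are not stated in the sources used here.

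From these, log2 ratios with 1 RPKM added were computed with pandas 2.3.3 for all 8092 genes of at least 5 RPKM, and the steps were tested on simulated data. A 2-fold difference was the threshold for counting. Genes named are those past it in m6A-tagged over input, its genotype difference and the inputs, the 5 highest and lowest in each comparison, the 3 highest and lowest of a described list, and paralogues; a few others are named for their role, after their values were seen. No test was run, since a pooled column has no replicate spread; the labels do not say whether the 3 libraries came from separate animals. Other added values (0.1 and 5 RPKM), other minimums and 2 scalings of the columns were tried. The members and lists were chosen with earlier results of these data known. Gene positions and promoters are from RefSeq (GRCm38.p6), matched by gene ID, positions for 57 of 57 genes and promoters for 48. A gene with a matching name is not analysed here.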

Additional observations from a re-analysis of the deposited data

How the results depend on the processing

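Of 231 counts and medians recomputed under other settings, 176 kept to within 1.5 times (counts) or 0.25 log2 (medians). The others are given here with the main value first; the causes were not tested, but a higher minimum leaves fewer genes (47 at 10 RPKM and 19 at 50 RPKM, against 85 with no minimum). No paired analysis was possible because each group is 1 pooled column, and for the same reason no replicate could be left out.

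With 5 RPKM added, m6A-tagged over input had 1 gene higher in Mettl3-deficient cells (main 2), and 0 higher (2) and 2 lower (4) in wild-type cells, with 5 higher (8) in the genotype difference. Mettl3-deficient unbound over input had 6 lower (10). Mettl3-deficient over wild-type had 0 higher in input (1), 2 lower in m6A-tagged (4) and 9 lower in unbound RNA (14). With 0.1 RPKM added, 7 were lower in m6A-tagged RNA (4).

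With no minimum, wild-type unbound over input had 25 lower (15) and a median of -0.0512 (0.22), the wild-type median of m6A-tagged over unbound was 0.21 (-0.07), and the inputs had 2 higher (1) and 10 lower (6).

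At 10 RPKM, wild-type m6A-tagged over input had 1 higher (2), m6A-tagged over unbound had 9 higher in Mettl3-deficient HSCs (14) and 14 in wild-type HSCs (22), and unbound over input had a Mettl3-deficient median of 0.35 (0.10) and 9 lower in wild-type cells (15).

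At 50 RPKM, m6A-tagged over input had 0 higher in both genotypes (2 and 2), 1 lower in wild-type cells (4), a wild-type median of -0.37 (0.17, reversed) and 2 higher in the genotype difference (8). M6A-tagged over unbound had 0 higher (14) and a median of -0.71 (0.01) in Mettl3-deficient cells, and 3 higher (22), 9 lower (16) and a median of -0.88 (-0.07) in wild-type cells; its genotype difference had 1 higher (9), 2 lower (20) and a median of 0.12 (-0.12, reversed). Unbound over input had 4 higher (7), 0 lower (10) and a median of 0.68 (0.10) in Mettl3-deficient cells, and 0 lower (15) and a median of 0.59 (0.22) in wild-type cells. Mettl3-deficient over wild-type had 0 higher (1) and 1 lower (6) in input, 0 and 0 in m6A-tagged (4 and 4), and 3 and 1 in unbound RNA (14 and 14).

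Under median-ratio scaling, wild-type m6A-tagged over input had 1 higher (2), its genotype difference 5 higher (8) and 1 lower (0), and Mettl3-deficient m6A-tagged over unbound 18 lower (10) and a median of -0.33 (0.01). Unbound over input had 14 higher in Mettl3-deficient HSCs (7) and 4 in wild-type HSCs (2), input 2 higher (1) and unbound RNA 9 lower (14). With columns scaled by upper quartile, 5 were higher (8) and 3 lower (0) in the genotype difference of m6A-tagged over input, and 2 were higher in input (1). Median-ratio scaling shifted the median of all genes by up to -0.34, in Mettl3-deficient m6A-tagged over unbound. Depth can be read per library, but single-library values of these genes cannot, so their precision is unknown.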
